A study of Arabidopsis thaliana with 22 samples.

Results

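The psbA gene of the Arabidopsis thaliana plastid genome was followed through ptATAC-seq, an assay in which Tn5 transposase cuts accessible DNA, adds adapters at the cut, and leaves a count at each position it reached. The stretch described here consists of 2 regions chosen by position in the large single copy region of the plastid chromosome (Pltd, TAIR10). The gene body is the 1062 bp coding region of psbA, on the minus strand, and the upstream region is the 300 bp before its start codon. Bases are counted from 1 at the first coding base, so Pltd coordinates fall as transcription proceeds. Cut into 50 bp steps away from the start codon, the gene gave 21 windows and the upstream region 6, together 27 of the 3088 windows of the genome, and psbA was 1 of 112 plastid genes measured. The 12 positions next to the stop codon were too few for a window. They entered the values of the whole gene, of the stretch next to the stop codon and of single positions, and their own signal ran the other way, with 218.5% ± 88.9 of the genome mean in nucleoids (SD, n = 10) and 156.0% ± 52.3 in naked DNA (SD, n = 11), from as few as 9 counts in a library.

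Nucleoids, the protein-bound form of chloroplast DNA, were compared with naked plastid DNA, the background against which the uneven cutting of bare DNA by Tn5 can be read. Every library came from rosette leaves of wild-type Col0 plants grown for 14 days on soil at 22 °C with 16 h of light, and the labels give 1 protocol for both fractions, with chloroplasts fixed in 4% formaldehyde for 4 h. They do not say how the naked DNA was made, nor whether the 11 numbered replicates of each fraction came from separate plants, so p-values measure the spread between these libraries, which may be technical.

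psbA encodes D1, a core protein of the photosystem II reaction centre. D1 is damaged by light and continually replaced, and psbA is one of the most strongly transcribed genes of the chloroplast, read by the plastid-encoded RNA polymerase from a promoter a short way upstream of the coding region. The gene for histidine transfer RNA, trnH, lies past its stop codon. On the other side lies trnK, the gene for lysine transfer RNA, whose intron holds matK, a maturase gene, and the far end of the upstream region reaches into trnK.

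Nucleoid replicates 9 and 10 were identical at all 154477 positions, so they differed by less than the sampling noise and were counted as 1 sample, leaving 10 nucleoid and 11 naked libraries. Total counts ranged from 202725 to 1813905 in nucleoid libraries and from 105763 to 1195649 in naked libraries. Of the 13 deep libraries, those with over 600000 counts, 8 were nucleoid and 5 naked, so depth moved with the fraction. The psbA gene body held 1726 to 13993 counts per nucleoid library and 924 to 10365 per naked library, while the upstream region held 288 to 2849 per nucleoid library and 169 to 2140 per naked library. Naked replicates 9, 10 and 11 stood apart at psbA. Their gene signal of 158.9 to 181.5% of the genome mean lay above that of the other 8 naked libraries (121.5 to 154.3%), and their upstream signal of 56.95 to 68.02% lay below (72.98 to 92.16%). None of these 3 libraries was deep, and results that rest on them are also given without them. The part of depth in the results was not tested beyond the comparisons of deep libraries and the fits with depth as a covariate.

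Signal over the psbA gene body was lower in nucleoid than in naked DNA. Signal is the mean count per position, expressed in percent of the same library's genome mean, so it compares psbA with the rest of the genome and is not an absolute amount. The 10 nucleoid libraries had a lowest value of 111.4%, a median of 118.5% and a highest of 136.8%, and the 11 naked libraries had 121.5%, 138.5% and 181.5%. All 10 nucleoid libraries lay below the naked median, and 7 of them lay below every naked library, but the ranges overlapped. Means were 120.0% ± 8.25 in nucleoids (SD, n = 10) and 144.4% ± 19.2 in naked DNA (SD, n = 11). The log2 fold change, nucleoid over naked on log2(signal + 1), was -0.26 (SE 0.068, limma adjusted p = 0.00737 over all 112 genes). Among all genes 27 were called lower, or 24.1%, and 11 higher, or 9.82%. Of the 78 coding genes, psbA among them, 7 were called lower and 11 higher. A lower call was thus common over all genes but less so among coding genes.

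The gene body call depended on which libraries were compared. Without naked replicates 9, 10 and 11 the log2 fold change was -0.17 (limma adjusted p = 0.0224). Fitting log2 depth as a covariate gave -0.23 (limma adjusted p = 0.0396). Among the deep libraries nucleoid values ran from 111.4 to 136.8% and naked values from 121.5 to 154.3%, and the change of -0.16 was not past the threshold (limma adjusted p = 0.103).

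**Figure D1:**
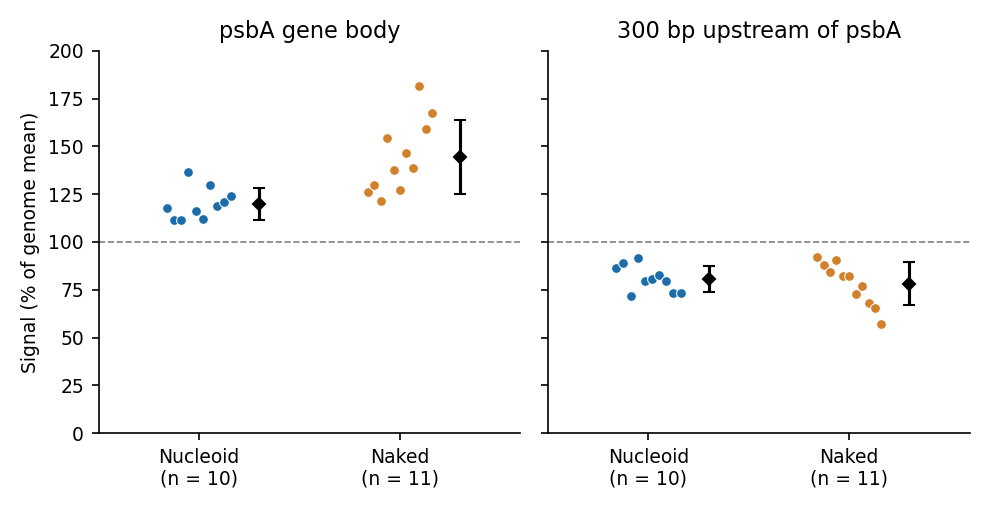
Signal over the psbA gene body and over the 300 bp upstream, in percent of the genome mean (vertical axis), with 1 point per library and the mean and SD as diamond and bar. Nucleoid libraries cluster between 111.4 and 136.8% over the gene, lower than most naked libraries, while the fractions overlap broadly upstream.

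The upstream region had less signal than the gene in both fractions and was not called different between them. Nucleoid libraries had a lowest upstream signal of 71.83%, a median of 80.26% and a highest of 91.72%, against 56.95%, 82.23% and 92.16% in naked libraries. The nucleoid values all lay within the naked range. The means were 80.8% ± 6.77 in nucleoids (SD, n = 10) and 78.2% ± 11.2 in naked DNA (SD, n = 11). On the log2 scale nucleoid exceeded naked signal by 0.057 with an SE of 0.079 (limma adjusted p = 0.524 over 514 tiles of 300 bp). Of these tiles 12.8% were called lower and 12.5% higher. Without naked replicates 9, 10 and 11 the change was -0.05 (limma adjusted p = 0.584), so its direction turned with those libraries.

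**Figure D2:**
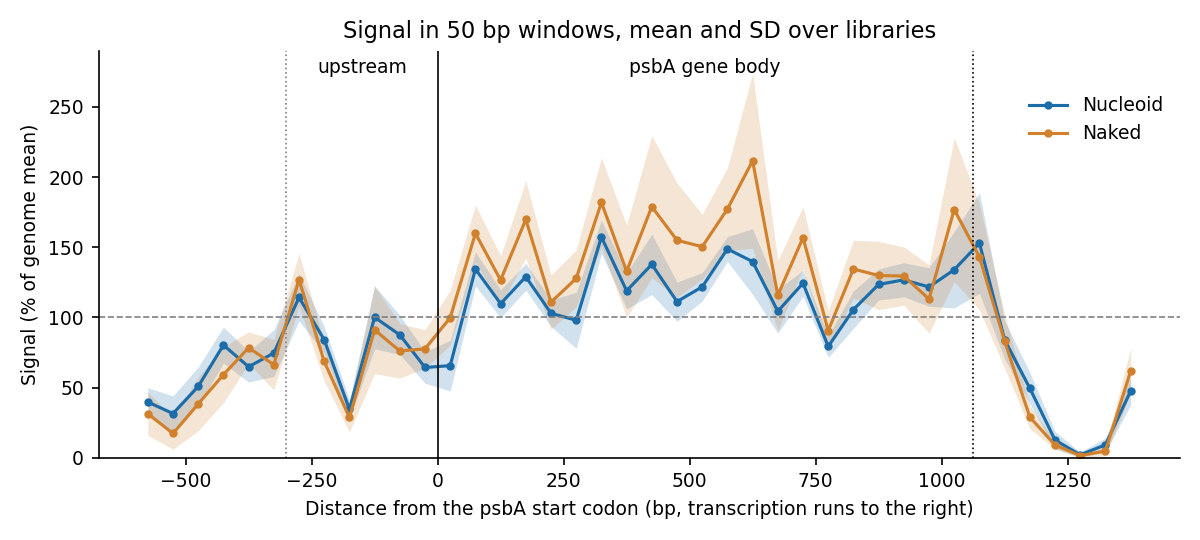
Mean signal in 50 bp windows (vertical axis, percent of the genome mean) against distance from the psbA start codon in bp, with transcription running to the right; lines are fraction means and shading is the SD over libraries. The lines have similar shapes, with r = 0.901 over the 27 windows and 0.83 over the 21 gene windows. The nucleoid line lies below the naked line over most of the gene.

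The fractions had similar profiles, with different high points. In nucleoids the window means of the gene ran from 65.67 to 157.3% and in naked DNA from 90.6 to 211.6%. The nucleoid high point was Pltd 1095 to 1144, bases 301 to 350 of the gene, with 157.3% ± 11.8 in nucleoids and 181.9% ± 31.9 in naked DNA. The naked high point was Pltd 795 to 844 (bases 601 to 650). The window 151 to 200 bases upstream of the start codon was the lowest of the 27 windows in both fractions, at 34.5% ± 6.70 in nucleoids and 28.7% ± 10.4 in naked DNA. Across the 27 windows the fraction means correlated with r = 0.901, as a description, since windows of a library share its depth and the DNA sequence is the same in both fractions. The pooled value includes the difference in level between gene and upstream windows. Within the 21 gene windows r was 0.83, and within the 6 upstream windows 0.921.

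Of the 21 gene windows 9 were called lower in nucleoids (42.9%), 0 higher, and 15 had an unadjusted p under 0.05. Over all 3088 windows of the plastid genome 12.3% were called lower and 18.3% higher. The log2 fold change was below 0 in 20 of the 21 gene windows, with a median of -0.24, whereas the median of all windows was 0.21. A value below 0 was not particular to psbA. Genes next to it in the order of naked signal also had log2 fold changes below 0, though none of them was called. These were psaA (-0.13), psbF (-0.13), atpB (-0.15) and psbE (-0.13). Without naked replicates 9, 10 and 11 psbE had -0.0085 (limma adjusted p = 0.98), where psbA had -0.17. Values without those libraries are not given for psaA, psbF and atpB. A lower call was not particular to psbA either. Slightly farther out in that order, atpH (-0.29, limma adjusted p = 0.0114), rps12 (-0.41, limma adjusted p = 0.000892), psbD (-0.26) and psbC (-0.25) were called lower. Scaling each library to its median window in place of its mean moved the median of all windows to 0.037 and the genome-wide calls to 292 higher and 455 lower, against 566 higher and 381 lower with the mean. At psbA this scaling gave 10 lower gene windows, among them all 9 called with the mean.

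The first 50 coding bases, the window beginning at Pltd 1395, had the most negative fold change of the stretch. Their signal in nucleoid libraries had a lowest value of 38.38%, a median of 67.08% and a highest of 93.97%, against 55.21%, 102.4% and 131.1% in naked libraries. All 10 nucleoid libraries lay below the naked median, and 8 naked libraries lay above every nucleoid library. The means were 65.67% ± 18.03 in nucleoids (SD, n = 10) and 99.84% ± 19.7 in naked DNA (SD, n = 11), a change of -0.62 on the log2 scale (SE 0.16, limma adjusted p = 0.00973). Among deep libraries the groups did not overlap, with 38.38 to 93.97% in 8 nucleoid and 100.5 to 131.1% in 5 naked libraries, and the change was -0.70 (limma adjusted p = 0.0353). Depth as a covariate gave -0.79 (limma adjusted p = 0.00377), and the value was -0.70 without naked replicates 9, 10 and 11 (limma adjusted p = 0.00655). The window held as few as 35 counts in a library.

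The 50 bp just before the start codon leaned the same way without passing the threshold. Nucleoid values there ran from 45.72% through a median of 65.24% to 79.22%, against 55.21%, 82.17% and 99.01% in naked libraries. Again none of the 10 nucleoid libraries reached the naked median. Here the log2 fold change was -0.27 (SE 0.12, limma adjusted p = 0.0807). In 8 of 32 alternatives the same window was called lower, and its fold change was below 0 in all 32. The 8 included the fit without naked replicates 9, 10 and 11 (-0.35, limma adjusted p = 0.0402), the fit of deep libraries (-0.36, limma adjusted p = 0.0407) and that with depth as a covariate (-0.41, limma adjusted p = 0.0135).

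Further into the gene the largest drop was at Pltd 795 to 844, bases 601 to 650. Signal there was 105.9%, 138.3% and 192.0% at the lowest, median and highest nucleoid library, against 135.1%, 207.1% and 335.7% in naked libraries. Each of the 10 nucleoid libraries had less than the naked median, and the log2 fold change was -0.56 (SE 0.15, limma adjusted p = 0.0117). This window was no longer called among deep libraries or with depth as a covariate.

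The lowest adjusted p of the gene belonged to Pltd 1245 to 1294, bases 151 to 200. Nucleoid libraries had 120.9%, 125.0% and 149.6% at their lowest, median and highest, and naked libraries 138.4%, 163.6% and 211.3%. Of the nucleoid libraries 8 lay below every naked library. The drop was -0.38 on the log2 scale (SE 0.088, limma adjusted p = 0.00562), and of 32 alternatives 1 ended the call, the comparison of deep libraries.

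The other 6 lower windows had smaller fold changes than the first coding window. They began at Pltd 595 (105.6% in nucleoids and 134.5% in naked DNA), 695 (124.4% and 156.8%), 895 (121.8% and 150.4%), 945 (111.3% and 155.0%), 1145 (97.98% and 127.8%) and 1345 (134.5% and 159.9%). Their log2 fold changes ran from -0.44 at the window starting at 945 to -0.24 at that starting at 1345, and their limma adjusted p-values from 0.00882 to 0.0426. Lower windows were thus spread along the gene from the start codon to base 850. Without naked replicates 9, 10 and 11, 8 of the 9 were still called, the exception being that at 945. The window at 1345 lost its call in 18 of 32 alternatives, most of which left out 1 library. Those starting at 595, 1145 and 1395 were the 3 gene windows that were called in the deep libraries as well, where 115 of 3088 windows were lower.

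The remaining 12 gene windows were not called. The window Pltd 845 to 894, next to the naked high point, missed with a limma adjusted p of 0.05005 (148.8% ± 8.87 in nucleoids and 177.2% ± 29.4 in naked DNA). Between bases 851 and 1000 the fractions were close. The 3 windows there had means of 123.5%, 126.8% and 121.7% in nucleoids and 129.9%, 129.5% and 113.1% in naked DNA, and the last of these was the single gene window with a log2 fold change above 0 (0.13, SE 0.12, limma adjusted p = 0.375).

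Upstream 0 of 6 windows were called lower by limma and 1 was called higher, while 2 had an unadjusted p under 0.05. The share called higher, 16.7%, was near the 18.3% over all windows, of which 12.3% were lower. The called window was Pltd 1645 to 1694, 201 to 250 bases before the start codon. Nucleoid libraries had 70.93%, 83.66% and 101.4% at their lowest, median and highest, and naked libraries 43.27%, 74.38% and 86.59%. Its log2 fold change was 0.31 (SE 0.11, limma adjusted p = 0.0431). It lost its call in 20 of 32 alternatives, many of which left out 1 library, with 0.16 without naked replicates 9, 10 and 11 (limma adjusted p = 0.190) and 0.082 among deep libraries (limma adjusted p = 0.557).

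**Figure D3:**
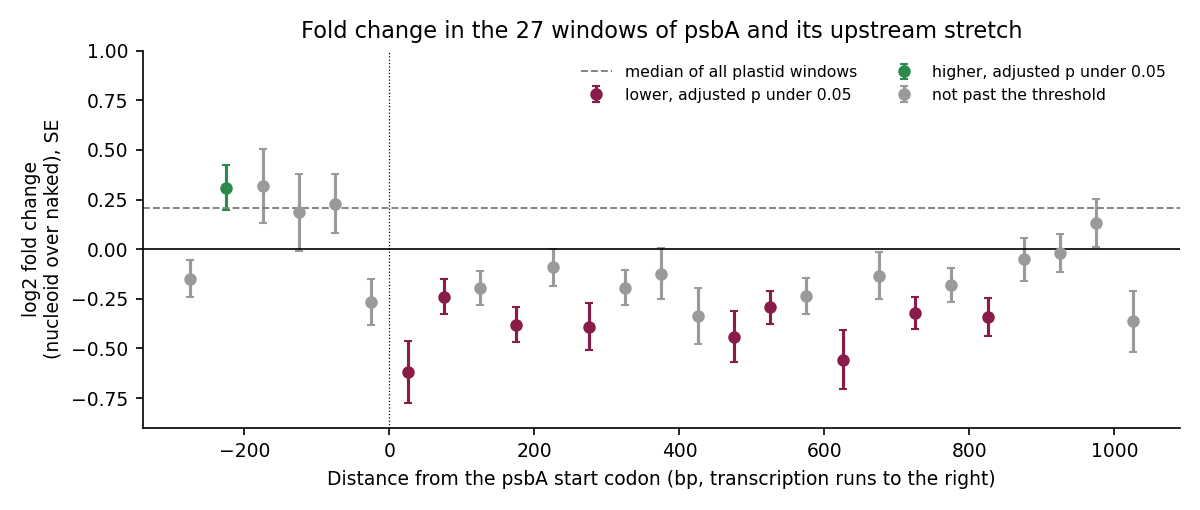
Log2 fold change, nucleoid over naked, with its SE (vertical axis) for the 27 windows against distance from the psbA start codon in bp; colours mark windows past an adjusted p of 0.05 and the dashed line is the median of all plastid windows, 0.21. The 9 lower windows all lie in the gene, and the single higher one lies upstream.

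At single positions, the insertion pattern was largely shared. Across the 1362 positions of the stretch the fraction means correlated with r = 0.939, and of the 100 positions with most signal in each fraction 79 were shared. Those 100 positions held 38.3% of the stretch's signal in nucleoids and 41.2% in naked DNA. The position with the largest deficit, Pltd 603 (base 842 of the gene), was also the highest in naked DNA, with 736.7% ± 164 in nucleoids and 1466% ± 507 in naked DNA. Of the 10 nucleoid libraries 9 lay below the lowest naked library there. The largest excess was at Pltd 1103 (base 342), with 617.9% ± 179 in nucleoids and 341.8% ± 176 in naked DNA. Both positions were chosen after their values were seen and were not tested.

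Ratios within the same library do not depend on how libraries are scaled. The log2 ratio of upstream to gene signal had a lowest value of -0.76, a median of -0.58 and a highest of -0.33 in nucleoid libraries, against -1.56, -0.77 and -0.45 in naked libraries. Each of the 10 nucleoid ratios was above the naked median. The means were -0.57 ± 0.13 in nucleoids (SD, n = 10) and -0.89 ± 0.38 in naked DNA (SD, n = 11), a difference of 0.32 (two-sided permutation test, p = 0.0186, adjusted over 3 ratios 0.0278). The difference rested on naked replicates 9, 10 and 11, whose ratios lay between -1.56 and -1.28. Without them it was 0.12 (exact permutation test, adjusted p = 0.188), and among deep libraries it was 0.079 (exact permutation test, adjusted p = 0.274). Depth as a covariate gave 0.20 (permutation test, adjusted p = 0.133), and leaving out nucleoid replicate 2 gave 0.29 (exact permutation test, adjusted p = 0.057).

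Within the gene, split into equal lengths, the deficit was larger next to the start codon. Over the coding bases nearest the start codon signal was 116.2% ± 8.61 in nucleoids (SD, n = 10) and 146.3% ± 17.4 in naked DNA (SD, n = 11), and 9 nucleoid libraries lay below every naked library. Over those next to the stop codon it was 123.7% ± 9.38 in nucleoids and 142.5% ± 22.7 in naked DNA, and 2 nucleoid libraries lay below every naked library. The log2 ratio of the start-codon stretch to the stop-codon stretch had a lowest value of -0.24, a median of -0.06 and a highest of 0.01 in nucleoids, against -0.23, 0.04 and 0.23 in naked libraries. Each of the 10 nucleoid ratios was below the naked median, and nucleoid minus naked came to -0.14 (two-sided permutation test, p = 0.0106, adjusted over 3 ratios 0.0278). It was -0.16 without naked replicates 9, 10 and 11 (exact permutation test, adjusted p = 0.00446), -0.13 among deep libraries (exact permutation test, adjusted p = 0.0326) and -0.17 with depth as a covariate (permutation test, adjusted p = 0.0106). Without the 12 positions next to the stop codon it was -0.11 (permutation test, adjusted p = 0.0278), an alternative chosen after seeing the data. Between the 354 bases at either end of the gene it was -0.14 and not past the threshold (permutation test, adjusted p = 0.0822).

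The balance between the 150 bp near the start codon and the 150 bp farther upstream was not called different. Their log2 ratio was 0.10 ± 0.29 in nucleoids (SD, n = 10) and 0.10 ± 0.25 in naked DNA (SD, n = 11), a difference of -0.0012 (two-sided permutation test, p = 0.992). With depth as a covariate the difference was -0.19 (permutation test, adjusted p = 0.046).

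**Figure D4:**
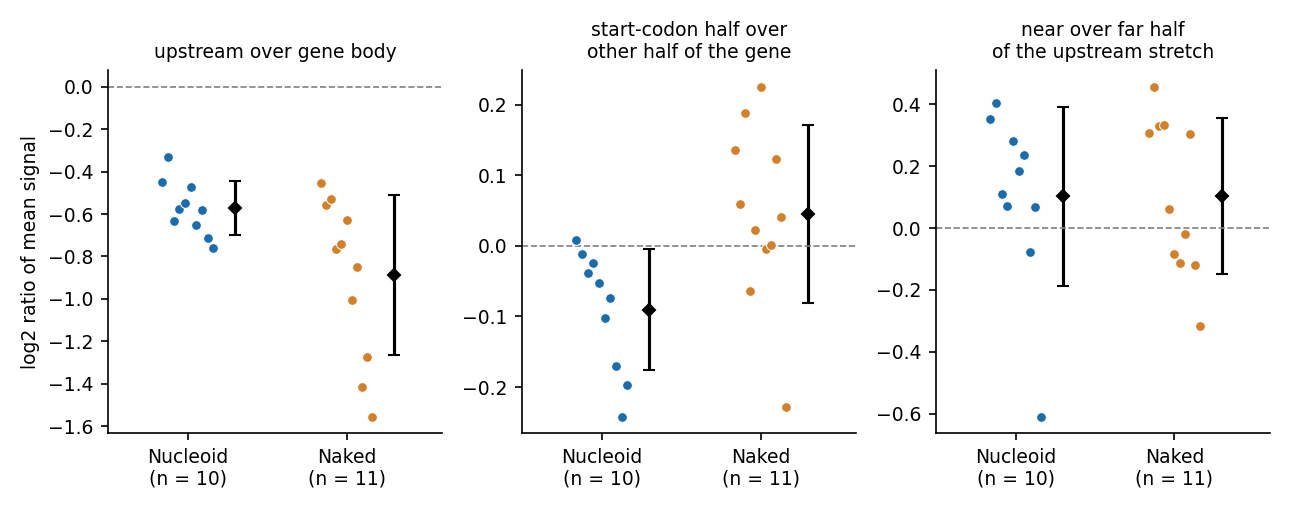
Log2 ratios of mean signal within each library (vertical axes), with 1 point per library and the mean and SD as diamond and bar: upstream region over gene body, the coding stretch next to the start codon over that next to the stop codon, and the near over the far part of the upstream region. The 3 lowest naked points of the first panel are replicates 9, 10 and 11, and in the second panel the nucleoid libraries lie at or below 0.01.

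The DNA on either side of the stretch had low signal in both fractions. The 300 bp past the stop codon, between psbA and trnH, had 44.1% ± 5.58 in nucleoids and 40.0% ± 4.76 in naked DNA. The 300 bp beyond the upstream region had 57.0% ± 10.3 and 48.5% ± 13.6 in nucleoid and naked DNA. Within the spacer toward trnH, Pltd 245 to 294 was higher in nucleoids, with 49.6% ± 11.2 (SD, n = 10) against 29.0% ± 8.14 in naked DNA (SD, n = 11). Of the nucleoid libraries 8 lay above every naked library in this window, which was chosen after its values were seen (log2 fold change 0.77, limma adjusted p = 0.00298). Beyond the upstream region Pltd 1945 to 1994 was also called higher, at 31.6% ± 12.6 against 17.4% ± 11.3 (0.97, limma adjusted p = 0.0317). The other flanking windows were not called, and over all 3088 windows 18.3% were called higher. Values without naked replicates 9, 10 and 11 are not given for either window. The gene trnH itself was lower in nucleoids, at 74.2% ± 14.2 against 107.6% ± 31.1 in naked DNA (log2 fold change -0.50, SE 0.14, limma adjusted p = 0.0136), and was not called without naked replicates 9, 10 and 11 (-0.34, limma adjusted p = 0.0618) or among deep libraries (-0.29, limma adjusted p = 0.0924). Neither trnK (72.0% ± 8.03 against 57.3% ± 24.5 in naked DNA, limma adjusted p = 0.114) nor matK (74.8% ± 9.63 against 58.3% ± 26.0, limma adjusted p = 0.105) was called. Their log2 fold changes were 0.49 and 0.54, and 0.019 and 0.045 without naked replicates 9, 10 and 11. Among deep libraries they were -0.0038 and 0.0115.

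By signal per position psbA stood 32nd of 112 genes in nucleoids and 21st in naked DNA, and among the 78 coding genes 20th and 6th. Its nucleoid neighbours in that order were atpH (121.3% ± 8.73), the ring subunit of the ATP synthase, and trnL (ArthCt126, 121.0% ± 12.04) above it, and psbD (117.8% ± 11.2) and ycf2 (117.8% ± 5.28) below it, all within 1 SD of psbA. In the order of fold changes psbA was the 28th lowest of all genes and the 5th lowest of the coding genes, of which 7 were called lower and 11 higher. It lay between rps14 (log2 fold change -0.27, limma adjusted p = 0.0387), a ribosomal protein gene, and psbD (-0.26) on the lower side and psbC (-0.25) and trnS (ArthCt117; -0.19, limma adjusted p = 0.276) on the other. These changes differed from that of psbA by no more than its SE.

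Of the 14 other plastid genes of photosystem II, 2 were called lower, 0 higher, and 4 had an unadjusted p under 0.05. Over all 112 genes 24.1% were called lower and 9.82% higher, and 56 had an unadjusted p under 0.05. Of the 78 coding genes, psbA and these 14 among them, 7 were called lower and 11 higher. The median log2 fold change of the 14 was 0.03, against 0.10 for all genes. The lower pair was psbD and psbC, which overlap and so share counts. psbD encodes D2, the partner of D1 in the reaction centre. It had 105.8%, 115.8% and 146.5% at its lowest, median and highest in nucleoid libraries, against 125.2%, 136.8% and 184.6% in naked libraries (log2 fold change -0.26, SE 0.067, limma adjusted p = 0.00684). The antenna gene psbC had 116.9% ± 14.6 in nucleoids and 138.9% ± 17.3 in naked DNA (-0.25, SE 0.074, limma adjusted p = 0.0152). Without naked replicates 9, 10 and 11 psbD was still called (-0.18, limma adjusted p = 0.0165) and psbC was not (-0.17, limma adjusted p = 0.0618), and among deep libraries neither was (limma adjusted p = 0.182 and 0.370).

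The remaining 12 had limma adjusted p-values from 0.063 to 0.959. The other core antenna gene, psbB, had 122.0% ± 5.74 in nucleoids and 135.8% ± 20.1 in naked DNA (-0.14, limma adjusted p = 0.101). The cytochrome b559 genes psbE (-0.13, limma adjusted p = 0.247) and psbF (-0.13, limma adjusted p = 0.246) also had values below 0. The small-subunit genes reached 0.45 at psbM (limma adjusted p = 0.0922). In nucleoids 5 of the 14 genes had a higher mean signal than psbA, and in naked DNA 1 did, psbF with 144.7% ± 27.7.

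**Figure D5:**
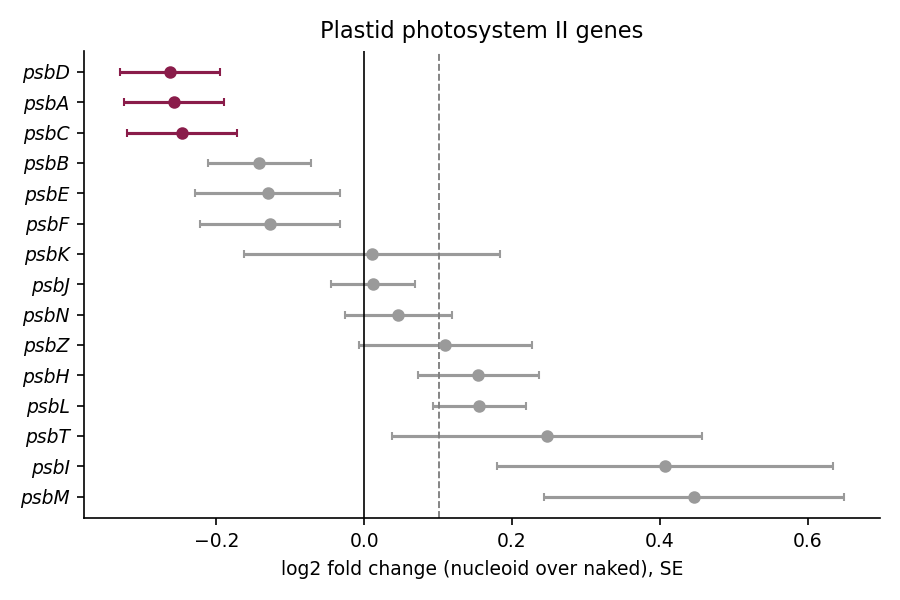
Log2 fold change, nucleoid over naked, with its SE (horizontal axis) for the 15 plastid genes of photosystem II, ordered by fold change; dark red marks an adjusted p under 0.05 and the dashed line is the median of all plastid genes. The genes psbD, psbA and psbC stand together at the low end, and psbM has the highest value, 0.45.

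Library by library, the genes whose signal moved most like that of psbA were atpA (r = 0.858), rbcL (0.854), psaB (0.853), psaA (0.851) and rpl2 (0.814), measured across 21 libraries after subtracting each fraction's mean. They encode an ATP synthase subunit, the large subunit of Rubisco, the core proteins of photosystem I and a ribosomal protein, and the median r over the 111 other genes was -0.376. These correlations rested in large part on naked DNA, where r with atpA was 0.944 against 0.406 in nucleoids. Without naked replicates 9, 10 and 11 the 5 values lay between 0.546 and 0.675 over 18 libraries, and the order changed. There trnV (ArthCt103, 0.738) and ndhK (0.709) ranked 1st and 2nd, and rpl2 ranked 12th. They are descriptions, since the genes of a library share its depth and its scaling.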

How the data were processed

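The deposited table holds whole-number counts of Tn5 insertions per plastid position, 1 column per library, with TAIR10 coordinates per the file headers. The submitters' processing notes name Trim Galore 0.4.1, Bowtie2 2.2.8.9 and bedtools 2.25.0. Duplicate removal, the shift of read ends and the handling of reads matching both inverted repeats are not given in the sources used here. All columns were matched to samples, leaving 0 unmatched.

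The psbA gene body is Pltd 383 to 1444 and the upstream region 1445 to 1744, 1-based. Each library's counts were scaled to its genome mean, and log2(signal + 1) was fitted with limma 3.58.1 in R 4.3.3 (lmFit, eBayes), two-sided, over all 112 genes, 514 tiles of 300 bp or 3088 windows of 50 bp, p-values being adjusted by Benjamini-Hochberg and called under 0.05. The added 1 shrinks changes at low signal. Windows in the second inverted repeat mirror the first and are not independent. Ratios were compared by permutation tests with 100000 resamples, exact where a group had fewer than 10 libraries. The limma fit of 50 bp windows was tested on simulated counts, in which no library had a profile of its own.

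A further count model had been planned as an alternative but was not run, because the table's column names kept the unit check from reading its columns as counts. The alternative with voom was fitted on the counts themselves, with each library's total as its size. Gene names came from RefSeq (TAIR10.1), whose coordinates are not printed.

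Members, lists and alternatives were chosen with earlier results of these data known. The genes named are psbA, its neighbours trnH, trnK and matK, the photosystem II genes psbB to psbE and any called, the 5 genes most correlated with psbA, and the 2 genes on either side of it in the order of fold changes. The windows named are every called one and the highest and lowest of each fraction. Others (atpB, atpH, rps12, trnL, ycf2, trnV, ndhK, psbF, psbM, Pltd 245 to 294, Pltd 845 to 894, Pltd 1945 to 1994, the 50 bp before the start codon, the windows of bases 851 to 1000 and the single positions) were chosen after their values were seen. Intervals for single libraries are not given, and counts of PCR reads without molecular identifiers are not independent molecules.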

Additional observations from a re-analysis of the deposited data

Results flagged for a closer look

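In 5 of 32 psbA values 1 nucleoid library stood far from the other 9 (Dixon's test), where chance gives about 1.6. Naked libraries, being 11, were not tested. The number given by chance holds for libraries of equal spread, which libraries of unequal depth need not have. Nucleoid replicate 11, the nucleoid library with the fewest counts (202725), gave 4 of the 5. Its log2 ratio of near to far upstream signal was -0.61, with the nearest nucleoid library at -0.08 and the highest at 0.41. Its signal at bases 1001 to 1050 was 204.2%, with the nearest at 140.9% and the lowest at 109.0%. At Pltd 795 to 844, a window called lower in nucleoids, it had 192.0%, with the nearest at 151.7%. In the window 251 to 300 bases before the start codon it had 158.5%, with the nearest at 122.3%. The other was replicate 4, with 124.9% at Pltd 1195 to 1244 and the nearest library at 107.3%. These values share counts, and their part in the results was not tested beyond leaving each library out in turn.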

How the results depend on the processing

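The log2 fold change of the psbA gene body stayed negative in every alternative and past the threshold in all but the deep libraries (-0.16). Leaving out single libraries gave -0.28 to -0.22. The upstream value, never past the threshold, changed sign with scaling to the large single copy mean (-0.0061), median scaling (-0.10), voom (-0.057), log2 depth in the model (-0.032), deep libraries (-0.083) and without naked replicates 9, 10 and 11 (-0.050), and ran from 0.013 to 0.081 without single libraries. The upstream to gene ratio kept its sign but lost its call in deep libraries (0.079), without those naked replicates (0.12), with depth in the model (0.20) and over 150 bp upstream (0.31). Without single libraries it ran from 0.25 to 0.36, losing its call without nucleoid replicate 2 (0.29, adjusted p = 0.057). The ratio of start-codon to stop-codon stretch lost its call only when the 354 bases at either end of the gene were compared (-0.14) and ran from -0.16 to -0.12 without single libraries. The near to far ratio passed only with depth in the model (-0.19) and ran from -0.043 to 0.078, changing sign in 9 of 21 such fits. The 10 called windows became 6 with depth in the model, 4 in deep libraries, 4 with replicate block and log2 depth (an alternative added after seeing the data), 21 of 54 windows of 25 bp, 6 of 13 windows of 100 bp, and 8 to 14 without single libraries. With that block and depth the first 50 coding bases had -0.52 (adjusted p = 0.0519). The 21 called windows of 25 bp held 1 higher gene window and, upstream, 2 higher and 2 lower ones. In several alternatives 1 upstream window of 50 bp was lower and 0 were higher. Among them were scaling to the large single copy mean, median scaling, voom, depth in the model, deep libraries and the replicate block without depth. The fit without naked replicates 9, 10 and 11 gave the same. The cause of these changes was not tested.

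The labels do not say that replicate numbers pair the libraries, and the counts did not settle it. The correlation between same-numbered libraries was over 0.1 in 8 of 10 pairs (lowest 0.092), above the median with other numbers in 10 and highest with the own number in 1. The unpaired fit was kept. Same-numbered libraries were thus more alike than the typical pair, and the unpaired p-values leave this likeness out. With a replicate block 13 windows were called and the gene body had -0.24 (adjusted p = 0.00797). Under this block the window 201 to 250 bases upstream lost its call (0.27, adjusted p = 0.0634) and the 50 bp before the start codon gained one (-0.30, adjusted p = 0.0197). The planned count model was not run. Depth limits the single windows most, since the lowest library held 8 counts in the lowest upstream window and 23 in the lowest gene window.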
